A study of Mus musculus with 7 samples.

Results

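Melanin is made and stored in melanosomes, and 9 genes of this pathway were followed here: Tyr, Tyrp1, Dct, Pmel, Mlana, Slc45a2, Oca2, Gpr143 and Slc24a5. They were picked by symbol from a read count table of 21861 rows, and each symbol matched 1 row. The table holds 7 libraries from aged mice, all of retinal pigment epithelium (RPE), a sheet of melanin-bearing cells that adjoins the outer segments of rods and cones. In 4 libraries the mice had received an adeno-associated virus (AAV) carrying GSTA4, a glutathione transferase that clears lipid aldehydes, and in 3 control libraries an AAV carrying the fluorescent protein GFP. RPE was taken 12 weeks after the virus, so every library comes from virus-treated tissue and there is no untreated or young group among these libraries. The labels used here give no promoter for the transgenes, no strain, sex or exact age, and do not say whether each library is a separate animal, so p-values measure the spread between these libraries.

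Tyrosinase, the product of Tyr, oxidises tyrosine and is the rate-limiting enzyme of melanin synthesis, and the related enzymes Tyrp1 and Dct act on later intermediates of eumelanin. Pmel forms the amyloid fibrils on which melanin is laid down, and channels and transporters such as Oca2, Slc45a2 and Slc24a5 set the ionic conditions inside the organelle. RPE makes most of its melanin early in life and keeps its melanosomes for long periods, and loss of Tyr, Oca2, Tyrp1 or Slc45a2 causes forms of oculocutaneous albinism. The same genes are used by melanocytes of the choroid and iris, which lie close to RPE.

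The library totals ran from 15329181 to 28998964 assigned reads, and 15916 to 17975 genes had a read. The human GSTA4 transgene lay at 222, 251, 2.64 and 43.7 CPM (read counts scaled to library size with edgeR's TMM factors) in GSTA4 replicates 1 to 4 and at 0.140 or less in the 3 GFP libraries, so its level differed widely inside the GSTA4 group. The EGFP sequence lay at 4.61, 153 and 113 CPM in GFP replicates 1 to 3 and at 0.411 to 8.58 CPM in the GSTA4 libraries, so the library labelled GFP replicate 1 held less of it than GSTA4 replicate 1. GFP replicate 3 stood apart: it correlated with the others at 0.838 on average (0.910 to 0.926 for the remaining 6), and its TMM factor was 1.36 (0.868 to 1.05). Values without it are given beside the 9 members and some of the lists and other genes. Lists and genes without such a value can depend on it too. Summed markers of RPE that are not pigment genes lay at 9149 to 30299 CPM in the GFP and 24222 to 46546 CPM in the GSTA4 libraries, and summed rod photoreceptor markers at 16522 to 42768 CPM and 8033 to 14777 CPM.

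The promoters of the pigment genes are shown because MITF, the main transcription factor of pigment cells, is known to bind motifs of the form CATGTG. A relation of these motifs to the levels of the members across the libraries was not tested. Windows of 300 bases, from 250 before to 50 after the annotated start, were taken from RefSeq (GRCm38.p6) for Tyr, Tyrp1, Dct, Oca2 and Slc24a5, 5 of the 9 genes. The gene coordinates given further below are from GENCODE M21, whose starts can differ. By those coordinates the Tyrp1 stretch and part of the Slc24a5 stretch lie inside the gene. Each stretch of 30 bases below is written 5′ to 3′ on the gene's strand, with CATGTG, or CACATG where it reads on the opposite strand, in capitals.
Tyr, chr7:87493516-87493545, minus strand: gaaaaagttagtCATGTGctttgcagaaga
Tyrp1, chr4:80834155-80834184, plus strand: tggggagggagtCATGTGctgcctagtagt
Dct, chr14:118052379-118052408, minus strand: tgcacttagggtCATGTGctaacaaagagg
Dct, chr14:118052461-118052490, minus strand: gcttggctgggaCACATGagcccaataaag
Oca2, chr7:56239561-56239590, plus strand: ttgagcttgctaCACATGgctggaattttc
Slc24a5, chr2:125068102-125068131, plus strand: aaggagactgctCACATGattcagcataag
All 5 windows held CATGTG on one strand or the other, as did 14.2% of the 32851 windows of all genes. The longer TCATGTGCT, which contains CATGTG, was found in the windows of the 3 enzyme genes Tyr, Tyrp1 and Dct and in 0.408% of all windows. TAATCC, a motif of the OTX family, was found in those of Tyrp1 and Dct and in 7.06% of all windows, and CACGTG in none of the 5 and in 7.15% of all. The motifs were chosen with the sequences in view, and a match is a description of the letters, not a site of binding.

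Tyr, on the minus strand of chromosome 7 (chr7:87424771-87493512, GRCm38), lay at 739.7, 654 and 142 CPM in GFP replicates 1 to 3 and at 596, 667, 853 and 827 CPM in GSTA4 replicates 1 to 4. GFP replicate 3 was the lowest library by far and the other 6 overlapped. The mean was 512 ± 323 CPM (SD, n = 3) with GFP and 736 ± 124 CPM (SD, n = 4) with GSTA4, a log2 difference of 0.52 ± 0.48 (SE, edgeR adjusted p = 0.687) that dropped to 0.08 without GFP replicate 3.

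Tyrp1, which stabilises tyrosinase and takes part in eumelanin synthesis (chr4:80834123-80851719, plus strand), lay at 888, 939 and 195 CPM with GFP and at 248, 738, 318 and 649 CPM with GSTA4. GSTA4 replicates 1 and 3 were near the low GFP library, and replicates 2 and 4 lay between them and the high GFP libraries. The group means were 674 ± 416 and 488 ± 242 CPM (SD), with a log2 difference of -0.47 ± 0.55 (SE, edgeR adjusted p = 0.762). Without GFP replicate 3 this became -0.90 (edgeR adjusted p = 0.434).

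Dct, the dopachrome tautomerase (chr14:118012790-118052244, minus strand), was the member with the most reads. It lay at 1733, 2193 and 952 CPM with GFP and at 1057, 1759, 1539.9 and 1845 CPM with GSTA4. The groups overlapped over most of their range, and the log2 difference was -0.07 ± 0.35 (SE, edgeR adjusted p = 0.957). It was -0.34 without GFP replicate 3.

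Among the structural proteins, Pmel (chr10:128704195-128720238, plus strand) lay at 542, 506 and 307 CPM with GFP and at 186, 428, 157 and 338 CPM with GSTA4. GSTA4 replicates 1 and 3 were the lowest of the 7 libraries, and replicates 2 and 4 lay inside the GFP range. The means were 452 ± 126 and 277 ± 128 CPM (SD), and the log2 difference was -0.70 ± 0.38 (SE, edgeR unadjusted p = 0.0974, adjusted p = 0.486). Without GFP replicate 3 it was -0.91 (edgeR unadjusted p = 0.0437, adjusted p = 0.386). Its exons share 105 bases with those of Dgka and 34 with those of Cdk2 on the other strand, and reads there cannot be told apart because the library kit does not mark strand.

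Mlana, a small melanosomal membrane protein that takes part in Pmel processing (chr19:29697824-29708634, plus strand), lay at 359, 391 and 89.3 CPM with GFP and at 76.9, 185, 101 and 218 CPM with GSTA4. All 4 GSTA4 libraries were below GFP replicates 1 and 2, and only replicate 1 was below GFP replicate 3. The means were 279.7 ± 166 and 145 ± 67.1 CPM (SD), with a log2 difference of -0.94 ± 0.51 (SE, edgeR unadjusted p = 0.0964, adjusted p = 0.485). Without GFP replicate 3 the difference was -1.36 (edgeR unadjusted p = 0.00804, adjusted p = 0.320), which did not pass the threshold of 0.05 either.

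Of the transport proteins, Oca2, which carries chloride across the melanosome membrane and raises its pH (chr7:56239760-56536518, plus strand), lay at 326, 253 and 75.1 CPM with GFP and at 283, 302, 425 and 343 CPM with GSTA4. GFP replicate 1 lay inside the GSTA4 range, and GFP replicate 3 was the lowest library. The means were 218 ± 129 and 338 ± 63.2 CPM (SD), and the log2 difference of 0.63 ± 0.43 (SE, edgeR adjusted p = 0.572) was 0.23 without GFP replicate 3. Slc45a2, a melanosomal sugar and proton transporter (chr15:11000721-11029233, plus strand), lay at 57.1, 71.9 and 29.4 CPM with GFP and at 57.2, 72.1, 57.8 and 53.3 CPM with GSTA4, so that 6 of the 7 libraries lay close together and GFP replicate 3 was low. Its log2 difference was 0.19 ± 0.29 (SE, edgeR adjusted p = 0.831), and it turned to -0.10 without GFP replicate 3. Slc24a5, a potassium-dependent sodium/calcium exchanger (chr2:125068124-125088677, plus strand), lay at 131, 151 and 64.4 CPM with GFP and at 121, 142, 185 and 165 CPM with GSTA4. These groups overlapped, and the log2 difference was 0.41 ± 0.31 (SE, edgeR adjusted p = 0.615), or 0.12 without GFP replicate 3. Its exons share 921 bases with Myef2 on the other strand, so part of its reads may belong to that gene.

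Gpr143, a receptor of the melanosome membrane that limits melanosome size and is mutated in ocular albinism (chrX:152781921-152808646, plus strand), was the member whose groups did not overlap. It lay at 61.0, 60.2 and 26.5 CPM with GFP and at 104, 70.5, 125 and 82.8 CPM with GSTA4, so each GSTA4 library was above each GFP library. The means were 49.2 ± 19.7 and 95.6 ± 24.0 CPM (SD), and the log2 difference was 0.96 ± 0.33 (SE, edgeR unadjusted p = 0.0170, adjusted p = 0.373). With DESeq2 its adjusted p was 0.122. The difference was 0.66 without GFP replicate 3, and 0.22 when libraries were scaled on the RPE markers that are not pigment genes.

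**Figure D1:**
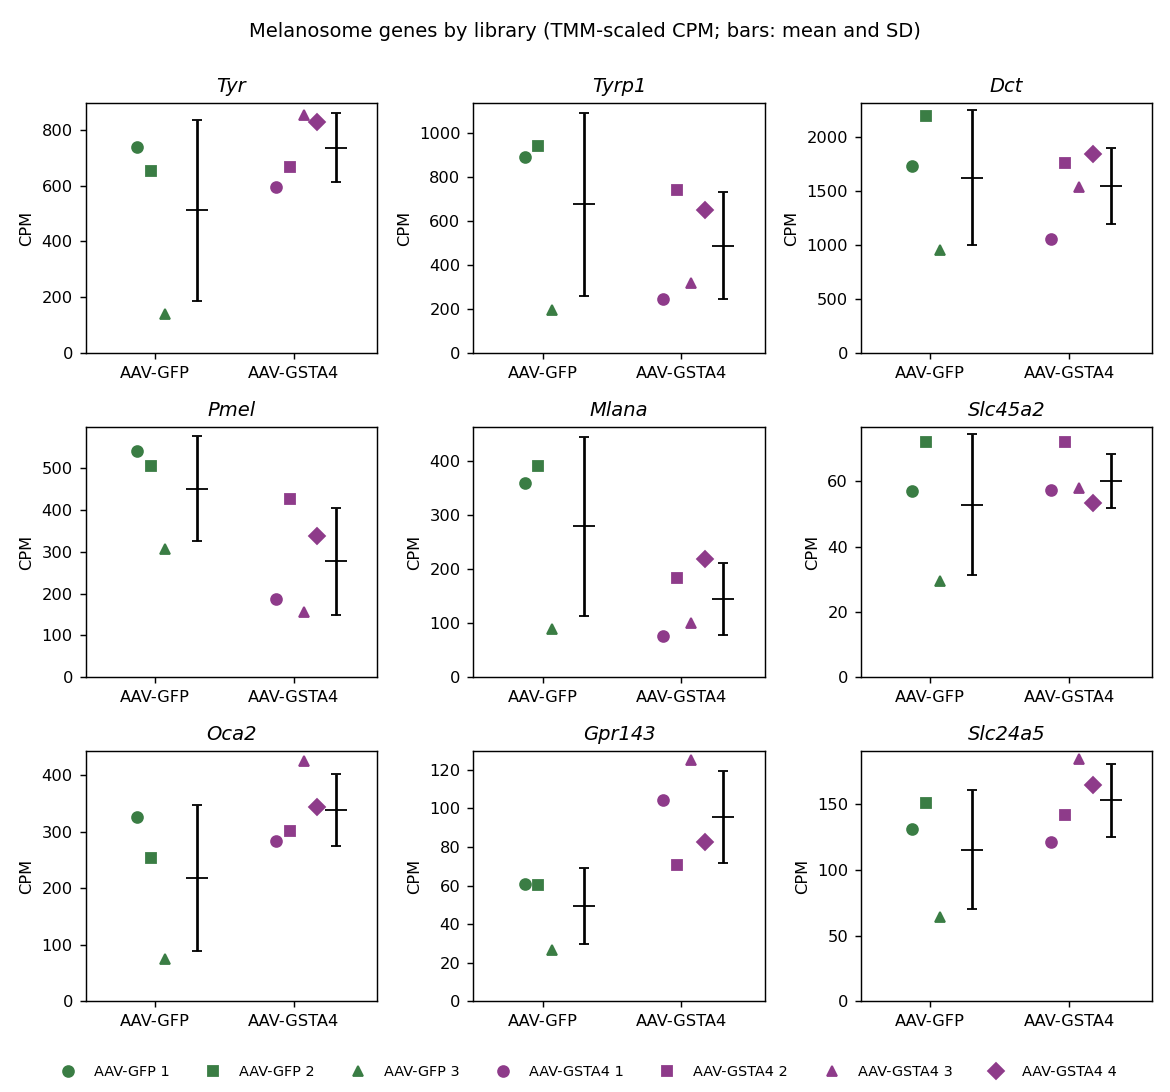
Level of each pigment gene in CPM (vertical axes, linear and starting at 0) in the 3 GFP and 4 GSTA4 libraries; each point is a library, and the bars give the group mean and SD. GFP replicate 3 is the lowest GFP point for all 9 genes, and Gpr143 is the panel in which the groups do not overlap.

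Over the 9 genes, 0 had an adjusted p under 0.05 in edgeR's quasi-likelihood test, where 0.0% of the 15075 genes tested did, and 1 (Gpr143) had an unadjusted p under 0.05, where 11.9% of all genes did. Groups did not overlap for 1 of the 9 genes and for 12.0% of all genes. That member was higher with GSTA4, as were 6.44% of all genes without overlap, and 0 members were lower without overlap, as were 5.61% of all genes. These shares are near those of the background. Without GFP replicate 3 there were 3 members at an unadjusted p under 0.05 (Gpr143 higher, Pmel and Mlana lower) and 0 at an adjusted p under 0.05. The share of all genes at an unadjusted p under 0.05 in that fit is not given here, so these 3 have no background beside them. The median of the 9 log2 differences in that fit was -0.10 against 0.01 over all genes. The log2 difference was positive for 5 genes and negative for 4, with a median of 0.19 against -0.07 over all genes tested. The median depended on the scaling: with library totals it was -0.06 against -0.37 over all genes, and with the RPE marker scaling -0.49 against -0.97, so that relative to all genes it lay at 0.26, 0.31 and 0.48 on the 3 scales. Slc45a2 turned negative with library totals, and Slc45a2, Tyr and Slc24a5 with the RPE marker scaling. On that last scale Dct lay at -0.78 (edgeR unadjusted p = 0.0266, adjusted p = 0.158), Tyrp1 at -0.94 (edgeR unadjusted p = 0.0804, adjusted p = 0.195), Pmel at -1.37 (edgeR unadjusted p = 0.0128, adjusted p = 0.154) and Mlana at -1.47 (edgeR unadjusted p = 0.00791, adjusted p = 0.154), where 29.1% of all genes were lower at an unadjusted p under 0.05. In bulk RNA, fewer cells of a type and less RNA per cell cannot be told apart.

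**Figure D2:**
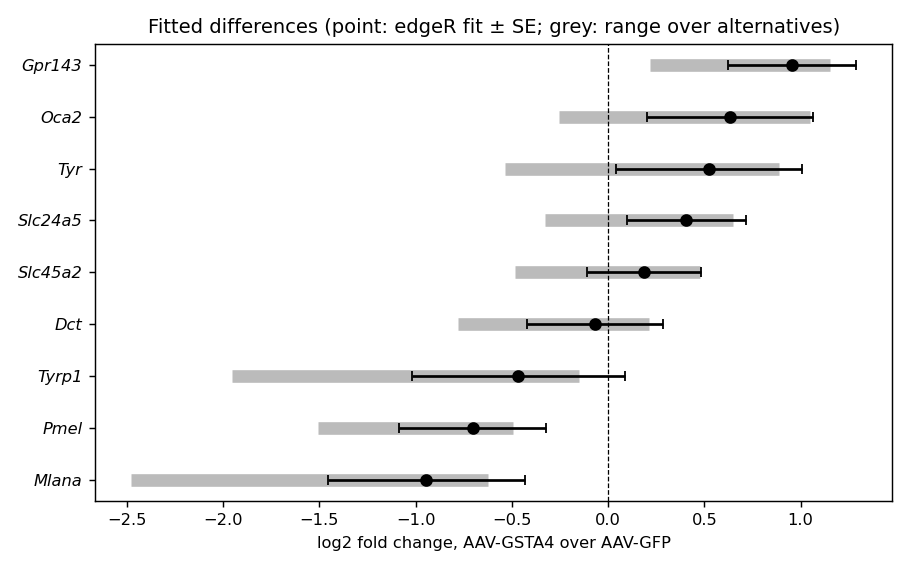
Log2 difference between GSTA4 and GFP libraries (horizontal axis) for the 9 pigment genes with the edgeR estimate of all 7 libraries as a point, its standard error as a line and the range over 17 alternative fits in grey. The grey ranges of Tyrp1, Pmel and Mlana lie below 0 and that of Gpr143 above it, and none passed the adjusted threshold.

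Taken as a sum, the 9 genes made up 0.478%, 0.547% and 0.256% of the assigned reads in GFP replicates 1 to 3 and 0.263%, 0.394%, 0.326% and 0.423% in GSTA4 replicates 1 to 4. GFP replicate 3 and GSTA4 replicate 1 were lowest and the groups overlapped. Each member had at least 552 reads in every library (Gpr143 in GFP replicate 3) and up to 56785 (Dct in GFP replicate 2), so counting error was small beside the spread between libraries.

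To order levels between genes, CPM were divided by the length of all annotated exons in kilobases (kb, GENCODE M21). Dct was highest at a mean of 268.5 CPM per kb over the 7 libraries, followed by Tyrp1 at 200.8, Mlana at 192, Pmel at 153.6, Tyr at 90.0, Oca2 at 72.4, Slc24a5 at 58.8, Gpr143 at 38.0 and Slc45a2 at 19.1 CPM per kb. Dct was above Tyrp1 in 6 of the 7 libraries, whereas Tyrp1 was above Mlana, and Mlana above Pmel, in only 4 of 7, so the order of these 3 is not settled by their spread. It also differed between the groups: with GFP the means were 275.8 CPM per kb for Dct, 264.6 for Mlana, 238.4 for Tyrp1 and 197.1 for Pmel, and with GSTA4 262.9 for Dct, 172.6 for Tyrp1, 137.5 for Mlana and 121.0 for Pmel. Pmel was above Tyr and Oca2 above Slc24a5 in 5 of 7, and Slc24a5 above Gpr143 in 6. Tyr was above Oca2, and Gpr143 above Slc45a2, in all 7 libraries. The exon length of 7108 bases used for Tyr counts exons of all its annotated transcripts, and a shorter expressed transcript would place it higher. The 2330 exon bases used for Slc24a5 include 921 shared with Myef2. How reads there were counted is not known, so its place in the order is unsure.

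**Figure D3:**
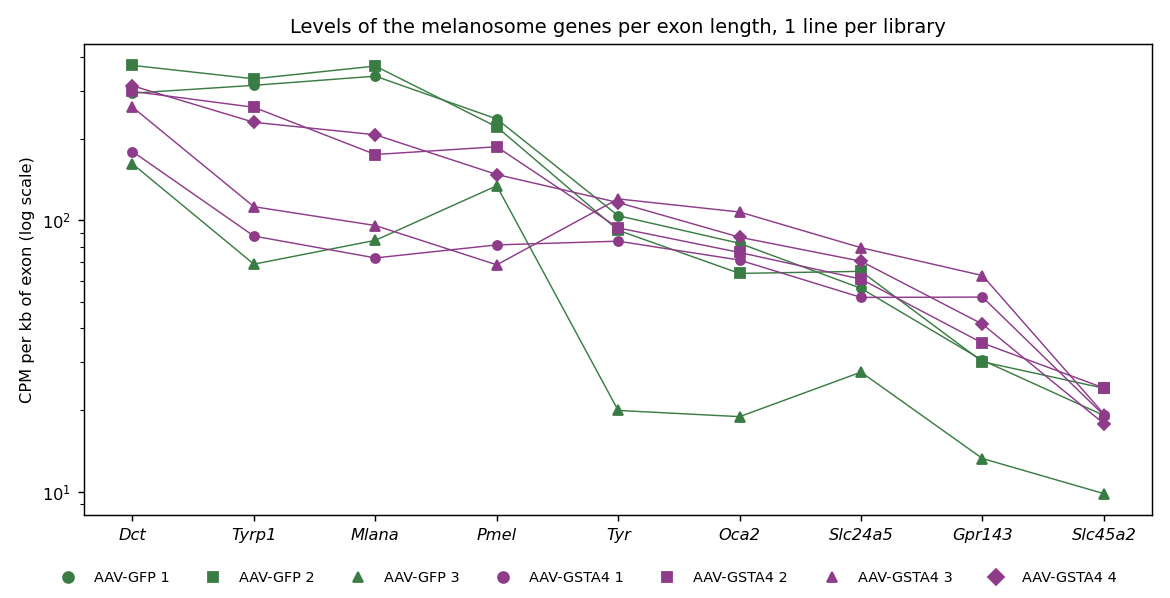
Level per kilobase of annotated exon (CPM per kb, vertical axis, log scale) for each pigment gene, with genes ordered from left to right by their mean and a line joining the points of each library. Dct has the highest mean and Slc45a2 the lowest, and Tyrp1, Mlana and Pmel overlap.

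Ratios between the genes do not depend on the scaling of the libraries. Tyr was used as the reference because it is the rate-limiting enzyme, a choice made after the values were seen, so what follows is a description. Mlana reads per Tyr read were 0.485, 0.598 and 0.629 in GFP replicates 1 to 3 and 0.129, 0.277, 0.119 and 0.264 in GSTA4 replicates 1 to 4. Every GSTA4 library was below every GFP library, and the geometric means differed 3.10-fold. For Pmel the ratios were 0.732, 0.775 and 2.17 against 0.312, 0.641, 0.184 and 0.409, which was 3.05-fold lower with GSTA4 and did not overlap. Tyrp1 per Tyr was 1.20, 1.44 and 1.37 against 0.415, 1.11, 0.372 and 0.785, or 2.20-fold lower, again without overlap. In all 3 ratios GSTA4 replicates 1 and 3 were lowest and replicate 2 was highest within the GSTA4 group. Oca2 per Tyr, by contrast, stayed between 0.387 and 0.529 in all 7 libraries, with a log2 difference of 0.04. The ratios of Dct, Slc45a2, Slc24a5 and Gpr143 overlapped between groups.

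In all, 3 of 8 members had lower ratios without overlap, where 12.3% of the 15074 other genes tested did. Ratios to Tyr were one-sided over all genes, as 0.245% were higher without overlap. Oca2 and Slc24a5 followed Tyr across the libraries (r = 0.988 and 0.962), so as denominators they are not independent of it and largely repeat the comparison. With Oca2 as the denominator the same 3 genes were lower without overlap (16.6% of all genes). With Slc24a5 as the denominator Dct, Pmel and Mlana were lower without overlap (10.6% of all genes). Gpr143 was higher without overlap on that ratio, for which the share of all genes was not counted. Rod markers were also lower in the GSTA4 libraries: they made up 1.63%, 2.85% and 5.81% of reads in the GFP and 1.43%, 1.20%, 1.20% and 0.751% in the GSTA4 libraries, a difference of -2.29 percentage points (two-sided exact permutation test, p = 0.0286, the smallest that 35 relabellings allow, adjusted p over 3 shares = 0.0857). The part of this in the ratios was not tested.

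**Figure D4:**
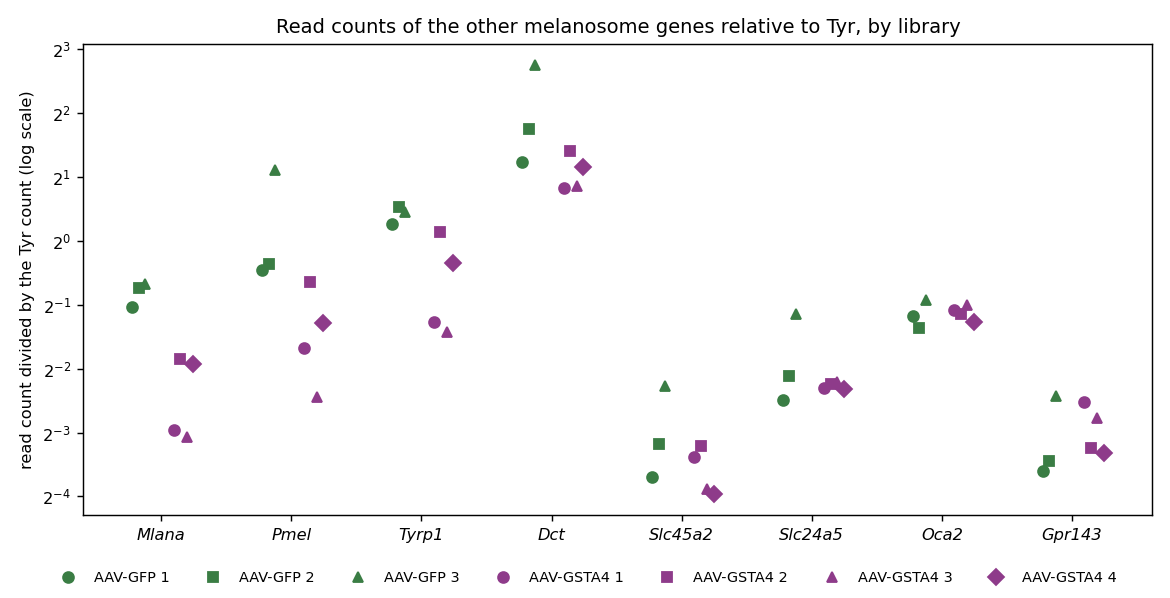
Reads of each gene per Tyr read (vertical axis, log scale) in the 7 libraries; each point is a library. Tyrp1, Pmel and Mlana do not overlap between groups and are lower with GSTA4, whereas Oca2 keeps to a narrow band in both.

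Side by side with these ratios, the human GSTA4 transgene lay at 251 CPM in GSTA4 replicate 2, which had the highest ratios, at 43.7 CPM in replicate 4, at 222 CPM in replicate 1 and at 2.64 CPM in replicate 3, which had the lowest. Replicate 4, with less transgene than replicate 1, had the higher ratios of the pair, and 4 libraries are too few for a test of the relation.

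Across the 7 libraries some of the genes varied together. On the log2 CPM scale Tyr followed Oca2 (r = 0.988, rho = 0.964) and Slc24a5 (r = 0.962, rho = 0.857), and Tyrp1 followed Mlana (r = 0.950, rho = 0.929) and Pmel (r = 0.785, rho = 0.821). Tyr and Pmel showed no such relation (r = 0.007, rho = -0.036). Without GFP replicate 3 the first 4 values of r were 0.863, 0.813, 0.965 and 0.964, so Tyr and Oca2 rested in part on that library. Dct followed Tyrp1 (r = 0.928, or 0.88 without that library). Other pairs depended on it more: r of Tyr and Slc45a2 went from 0.858 to -0.502, and that of Pmel and Gpr143 from -0.499 to -0.99. These are descriptions of 7 libraries that share their scaling, with no test. By the same measure, the 5 genes outside the 9 whose profile lay closest to the members' mean were Sdhaf2 (r = 0.996), Cyb561 (r = 0.996), Gng5 (r = 0.995), Cbwd1 (r = 0.992) and Pld5 (r = 0.992), out of 11101 genes with a mean of at least 2 on the log2 CPM scale. That mean stands poorly for Pmel (r = 0.39 with it) and Gpr143 (r = 0.583), whereas the other members lay at 0.74 to 0.921.

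The wider pathway was described with 52 genes in 5 lists, all of which were tested. In edgeR 0 of the 52 passed the adjusted threshold, and at an unadjusted p under 0.05 there were 9 higher (5.27% of all genes) and 1 lower (6.63% of all genes). The median log2 difference was 0.23, against -0.07 over all genes. It was -0.03 with library totals (-0.37 over all genes), -0.58 with the RPE marker scaling (-0.97 over all genes) and 0.10 without GFP replicate 3 (0.01 over all genes), and with the RPE marker scaling the medians of the 5 lists ran from -0.84 to -0.45.

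Among 8 pigment regulators, 2 were higher at an unadjusted p under 0.05 and 0 lower, with a median log2 difference of 0.39. Otx2, a homeobox factor that RPE needs for its identity and pigment genes, lay at 265, 320.4 and 237 CPM with GFP and at 413, 330.2, 562 and 448 CPM with GSTA4. The groups did not overlap, and the log2 difference was 0.68 ± 0.26 (SE, edgeR unadjusted p = 0.0274, adjusted p = 0.382). Usf1, a basic helix-loop-helix factor that acts on pigment genes, was at 0.58 ± 0.26 (SE, edgeR adjusted p = 0.411). Mitf lay at 93.7, 87.0 and 31.5 CPM with GFP and at 95.0, 91.3, 138 and 102 CPM with GSTA4, a log2 difference of 0.59 ± 0.36 (SE, edgeR adjusted p = 0.524), with GFP replicate 3 again the lowest, and of 0.24 without that library. Its reads per Tyr read ranged from 0.124 to 0.222 and overlapped between the groups. Sox9, which acts with Otx2 and Mitf on RPE genes, lay at 0.46 ± 0.31 (SE, edgeR adjusted p = 0.563). The differences of Pax6, an eye field factor also made by retinal neurons, and of the Mitf relative Tfec were -0.64 ± 0.38 and -1.41 ± 0.92 (SE). With the RPE marker scaling Otx2, Usf1, Mitf and Sox9 turned to -0.24, -0.25, -0.08 and -0.43.

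Of 5 genes for the fibril and its processing, 1 was higher at an unadjusted p under 0.05 and 0 were lower. This was Apoe, a lipoprotein that binds Pmel fibrils, at a log2 difference of 0.76 ± 0.34 (SE, edgeR adjusted p = 0.413). Cd63, which sorts Pmel, lay at 0.39 ± 0.43 (SE), or 0.013 without GFP replicate 3. Gpnmb, a relative of Pmel, lay at 1534, 1357 and 773 CPM with GFP and at 702, 1179, 1039 and 1169 CPM with GSTA4. Its log2 difference was -0.26 ± 0.33 (SE, edgeR adjusted p = 0.777), and the low GSTA4 library was replicate 1, as for Tyrp1 and Mlana.

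Among 8 other transport proteins of melanosomes and lysosomes, 3 were higher at an unadjusted p under 0.05 and 0 lower, with a median of 0.49. Atp7a, the copper pump that loads tyrosinase with its metal, lay at 36.4, 39.3 and 5.38 CPM with GFP and at 50.9, 71.0, 85.2 and 76.4 CPM with GSTA4. No GSTA4 library was as low as a GFP library, and the log2 difference was 1.39 ± 0.55 (SE, edgeR unadjusted p = 0.0314, adjusted p = 0.384), or 0.91 without GFP replicate 3. Clcn7 and Ostm1, the chloride/proton exchanger of lysosomes and its partner subunit, were at 0.50 ± 0.21 and 0.96 ± 0.42 (SE, edgeR adjusted p = 0.403 and 0.411). Trpm1, a cation channel whose gene MITF activates, lay at 462, 549 and 332 CPM with GFP and at 201, 449, 175 and 416 CPM with GSTA4, low in GSTA4 replicates 1 and 3 as Pmel was. Its log2 difference was -0.53 ± 0.38 (SE, edgeR adjusted p = 0.592), and its correlation with Pmel over the 7 libraries was 0.975. Over the same libraries Pmel correlated with Pax6 at 0.883 and with Mitf at -0.203. Which cells the reads of Trpm1 came from was not tested. Mfsd12, a cysteine importer, lay at -0.21 ± 0.29 (SE).

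For the 24 genes that sort cargo to the melanosome, 2 were higher at an unadjusted p under 0.05 and 0 lower, with a median of 0.12 that was -0.21 with library totals. They were Hps4, a subunit of the BLOC-3 complex, at 0.78 ± 0.28 (SE, edgeR adjusted p = 0.373) and Ap3b1, a subunit of the AP-3 adaptor, at 0.57 ± 0.25 (SE, edgeR adjusted p = 0.420). Ap3s1 and Bloc1s4, subunits of AP-3 and BLOC-1, lay at -0.71 ± 0.38 and -1.20 ± 0.72 (SE). Rab32, a small GTPase that brings tyrosinase to melanosomes, lay at 23.9, 26.2 and 21.9 CPM with GFP and at 18.6, 18.1, 7.88 and 21.3 CPM with GSTA4, and its relative Rab38 at a log2 difference of -0.30 ± 0.38 (SE).

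Of 7 genes for melanosome movement, 1 was higher and 1 lower at an unadjusted p under 0.05. Myo7a, the myosin that holds RPE melanosomes near the apical side, lay at 62.4, 61.7 and 49.6 CPM with GFP and at 102, 79.3, 124 and 129 CPM with GSTA4. The groups did not overlap, and the log2 difference was 0.91 ± 0.23 (SE, edgeR unadjusted p = 0.00331, adjusted p = 0.363). DESeq2 gave 0.93 with an adjusted p of 0.0324, the only one that passed of the 46 to which it gave an adjusted p, where 2.0% of 10062 genes did. With the RPE marker scaling the difference of Myo7a was 0.008 (edgeR unadjusted p = 0.983). Mreg, melanoregulin, which acts in melanosome and phagosome handling, lay at 12.8, 9.85 and 8.93 CPM with GFP and at 4.37, 3.55, 4.06 and 4.06 CPM with GSTA4. Each GSTA4 library was below each GFP library, with a log2 difference of -1.39 ± 0.32 (SE, edgeR unadjusted p = 0.00160, adjusted p = 0.363). DESeq2 gave Mreg an unadjusted p of 3.9e-05 and no adjusted p, as for 5 others of the 52. Sytl2 and Mlph, effectors of the GTPase Rab27a, lay at 0.51 ± 0.27 and -0.39 ± 0.36 (SE), and Rab27a itself, which links melanosomes to myosin, at 0.61 ± 0.32 (SE, edgeR adjusted p = 0.479).

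**Figure D5:**
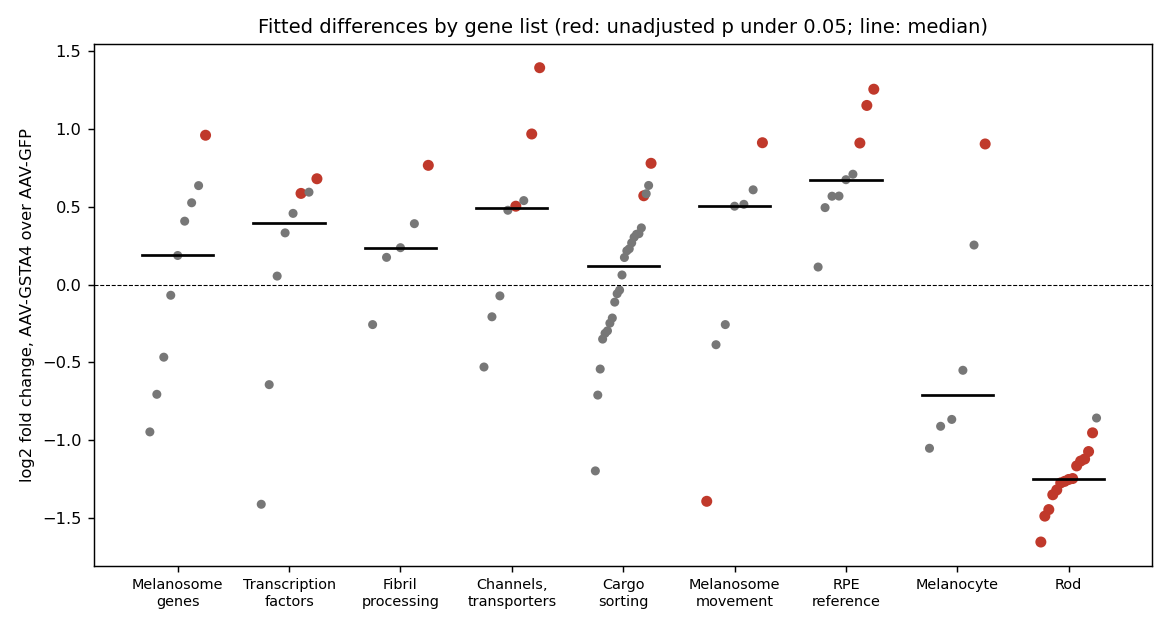
Log2 difference between GSTA4 and GFP libraries (vertical axis) for the 9 pigment genes, the 5 pathway lists and the RPE, melanocyte and rod markers; each point is a gene, red marks an unadjusted p under 0.05 and the line is the list's median. Medians of the pathway lists run from 0.12 for cargo sorting to 0.50 for melanosome movement and that of the rod markers lies at -1.25, and no gene passed the adjusted threshold in edgeR.

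The cell types in the samples were checked with marker genes. All 9 RPE markers that are not pigment genes had positive log2 differences, with a median of 0.67. Without GFP replicate 3 the median was 0.30 and 8 of the 9 were positive. They made up 2.99%, 2.52% and 1.24% of reads with GFP and 2.94%, 2.19%, 4.04% and 3.44% with GSTA4 (two-sided exact permutation test, p = 0.257). All 15 rod markers were negative, 14 of them at an unadjusted p under 0.05, with a median of -1.25. Without GFP replicate 3 there were 9 at that threshold, and the median of the 15 was -0.78. All 7 cone markers were negative too, with a median of -1.01, or -0.44 without GFP replicate 3. Macrophage markers summed to 989 to 3303 CPM with GFP and 1384 to 3241 CPM with GSTA4. In the same order fibroblast markers summed to 174 to 947 and 299 to 634 CPM, endothelial to 29.7 to 137 and 31.8 to 52.4 CPM, and glial to 446 to 568 and 470 to 529 CPM. Melanocyte markers summed to 74.5 to 128 CPM with GFP and 69.9 to 102 CPM with GSTA4. Of the 6 tested, 2 had positive and 4 negative log2 differences. Their median was -0.71, and -0.02 without GFP replicate 3. Foxd3 was at 0 in 3 libraries, Mc1r lay at 0.240 to 2.31 CPM and Sox10 at 20.2 to 69.5 CPM. Levels of these markers thus differed widely, and Sox10 lay close to the member Slc45a2 (29.4 to 72.1 CPM). Markers of the ciliary body and iris summed to 24.1 to 92.5 CPM with GFP and 36.7 to 39.9 CPM with GSTA4. Of these 4 genes, 1 had a positive and 3 a negative log2 difference. Their median was -0.91, or -1.19 without GFP replicate 3. Lens markers summed to 1572 to 6482 CPM with GFP and 2227 to 51340.0 CPM with GSTA4, with the highest value in GSTA4 replicate 2, the GSTA4 library with the highest Tyrp1, Pmel and Mlana ratios. As a share of reads the melanocyte markers differed by an exact permutation p of 0.0571 (two-sided, adjusted over 3 shares 0.0857), and without Ednrb, the most abundant of them by its mean over the 7 libraries, by a p of 0.8. Ednrb, the endothelin receptor of melanocytes, lay at 71.4, 80.3 and 21.8 CPM with GFP and at 19.2, 31.6, 18.7 and 53.5 CPM with GSTA4. Its log2 difference was -0.91 ± 0.49 (SE), and its correlation with Mlana over the 7 libraries was 0.974. Kit and Sox10, of the same list, went the other way. Kit lay at 8.34, 7.26 and 7.78 CPM with GFP and at 10.7, 15.4, 17.3 and 14.8 CPM with GSTA4. Its log2 difference was 0.901 ± 0.285 (SE, edgeR unadjusted p = 0.0107, adjusted p = 0.363), or -0.020 with the RPE marker scaling. That of Sox10 was 0.25 ± 0.40 (SE). The part of melanocyte, lens or anterior eye RNA in the levels of Tyrp1, Pmel and Mlana was not tested.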

How the data were processed

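Polyadenylated RNA from RPE of aged mice was made into full-length cDNA with SMART-Seq v4 and into Nextera XT libraries, per the labels' protocols. The deposited table holds whole-number counts of reads per gene. Alignment with STAR 2.7.1a and counting with featureCounts 1.6.2 are named in the submitters' processing notes, which list GRCm38/mm10 and GRCh38/hg38. The annotation, strand setting and treatment of reads with several matches are not given in the sources used here. Depth ran from 15329181 to 28998964 reads per library, without molecular identifiers.

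The 3 GFP and 4 GSTA4 libraries were compared with edgeR 4.0.16 (TMM, robust quasi-likelihood test, filterByExpr, Benjamini-Hochberg over 15075 genes, threshold 0.05, R 4.3.3), which was tested on simulated counts. DESeq2 1.42.0, limma 3.58.1 (voom), other scalings and filters, replicate blocks and fits without each library were alternatives. Shares of reads were compared by exact permutation (SciPy 1.17.1). CPM use TMM factors. Named genes were the 9 members, Mitf, Otx2, Pax6, Sox9, the 2 genes of smallest p per direction in each list and the 5 nearest profiles. Ednrb, Kit, Ostm1, Rab27a, Rab32, Rab38 and Sox10 were added afterwards. The members and lists were chosen with earlier results of these data known.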

Additional observations from a re-analysis of the deposited data

Results flagged for a closer look

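Ap3b1, a subunit of the AP-3 adaptor, had 1 library that lay far from the other 3 of its group. GSTA4 replicate 2 lay at 91.8 CPM and replicates 1, 3 and 4 at 60.4, 62.7 and 63.5 CPM, and on the log2 scale the gap was 0.878 of the group's range, above Dixon's critical value for 4 samples. It was 1 of 33 groups examined, and chance gives about 5% of groups.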

How the results depend on the processing

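No member passed the adjusted threshold in any of 153 alternative fits, and 12 of these turned the direction of a member. Tyrp1, Pmel, Mlana and Gpr143 kept their direction in all 17 alternatives, with log2 differences of -1.96 to -0.15, -1.51 to -0.50, -2.48 to -0.62 and 0.22 to 1.16. RPE marker scaling gave Tyr -0.035, Slc45a2 -0.49, Slc24a5 -0.33, Mitf -0.08, Otx2 -0.24, Sox9 -0.43, Usf1 -0.25, Apoe -0.077, Cd63 -0.26, Clcn7 -0.47, Hps4 -0.16, Ap3b1 -0.17 and Sytl2 -0.29. A rod score as covariate gave Tyr -0.54, Slc45a2 -0.17, Oca2 -0.25, Slc24a5 -0.11, Mitf -0.024, Cd63 -0.51 and Sytl2 -0.035. Slc45a2 lay at -0.057 with library totals, at -0.15 with voom weights and without 1 library at -0.10 (GFP replicate 3) to 0.477. Without 1 library Dct ran from -0.34 to 0.21 (above 0 without GFP replicate 2, and at 0.09 without GSTA4 replicate 1), Tfec from -1.997 to 0.048 (without GFP replicate 1) and Mlph from -0.693 to 0.016 (without GFP replicate 2). The cause of these turns was not tested.

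Over all genes edgeR called 0 (1794 at an unadjusted p under 0.05), DESeq2 201, each replicate block 1 (the human GSTA4 transgene), the rod covariate 1 (Cyp2f2), and fits without 1 library 0 to 1. DESeq2 gave 46 of the 52 pathway genes an adjusted p and called 1. The count of members at an unadjusted p under 0.05 went from 1 to 3 with library totals, RPE marker scaling, voom and the rod covariate, and ran from 1 to 3 without 1 library (3 without GFP replicate 3, 2 without GSTA4 replicate 2). That of all genes was 4400 with RPE marker scaling, 3293 with voom and 1032 to 1987 without 1 library. The count over all genes is not given here for library totals or the rod covariate. That of pathway genes, 10 in the 7 libraries, was 17 with voom, 4 with the rod covariate and 3 to 13 without 1 library (3 without GSTA4 replicate 3 or 4). Differences in share without 1 library ran from -3.19 to -1.10 percentage points for rod markers, 0.397 to 1.27 for RPE markers and -0.00425 to -0.00264 for melanocyte markers.

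The labels do not state that replicate numbers pair animals, so the numbers were not used as pairs in the main fit. Same-numbered libraries did not deviate together. Correlations were -0.0889, 3.3e-05 and 0.00904 by the sample titles, and -0.0889, 0.0146 and -0.128 by the library names. With the replicate block by title number 849 genes had an unadjusted p under 0.05, 4 of them in the pathway lists, and 1148 genes did with the numbers of the library names.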
